A study of Mus musculus with 14 samples.

Results

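The genes described here are 9 integrins and adhesion molecules: Itgae, Itga4, Itgal, Itgam, Itgb1, Selplg, Spn, Cd44 and Pecam1. They were chosen by gene symbol from a table of 10106 genes, and all 9 had values and passed the filter on low values (9793 genes did). The cells were OT-I CD8+ T cells, whose transgenic receptor recognises SIINFEKL, a peptide of ovalbumin. CFSE-labeled cells from the spleens of OT-I mice (8-12 weeks in the labels) were injected into CD45.2+ C57BL/6 recipients on day 0. On day 1 the recipients received saline alone (Naive) or 223 pmol of antigen by vein, equivalent to 10 µg of ovalbumin. The antigen was ovalbumin (OVA), ovalbumin linked to ERY1, a peptide that binds erythrocytes (ERY1-OVA), the free peptide (SIINFEKL) or the peptide coupled to TER119, an antibody format that binds mouse erythrocytes (TER119-SIINFEKL). On day 4 splenic donor cells were sorted as CD3e+ CD8+ CD45.1+, and poly(A) RNA was sequenced in 3 libraries per group, except for SIINFEKL with 2. The cells of every group were transferred, so Naive stands for transferred cells without antigen, in a host that keeps its own lymphocytes.

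Integrins are receptors of 1 alpha and 1 beta chain that bind other cells or matrix once signals from inside the cell switch them on. In CD8+ T cells, LFA-1 (Itgal with Itgb2) holds the cell to antigen-presenting cells and vessel walls. VLA-4 (Itga4 with Itgb1) binds VCAM-1 and fibronectin, and Itga4 with Itgb7 binds the gut addressin MAdCAM-1. CD103 (Itgae, which pairs with Itgb7) binds E-cadherin on epithelium and is known on naive and tissue-resident CD8+ T cells. PSGL-1 (Selplg) and CD43 (Spn) are mucins, CD44 binds hyaluronan and is a standard marker of antigen experience, and PECAM-1 is an adhesion receptor with inhibitory motifs in its tail.

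All values are log2 RPKM (reads per kilobase of gene, relative to library size), so 1 unit is a doubling. The files used here hold no counts, and the depth of each library is unknown. Differences are in log2 units with the standard error, and a gene is called at a Benjamini-Hochberg adjusted p under 0.05 over the 9793 genes. Replicate libraries varied most in the SIINFEKL group, with a typical SD of 0.416 over genes against 0.226 to 0.255 in the other groups. In 6 libraries (Naive replicates 1 and 3, OVA replicate 1, ERY1-OVA replicates 2 and 3 and TER119-SIINFEKL replicate 1) long genes lay below the group mean, with rank correlations of deviation and exon length of -0.47 to -0.18, against -0.06 to 0.50 in the other 8. The 5 T cell markers (Cd3e, Cd3d, Cd3g, Cd8a, Cd8b1) summed to 2631.1 to 3028.1 RPKM in Naive and 2623.7 to 2649.0 after SIINFEKL. The sums were lower after OVA (1920.4 to 2230.8), ERY1-OVA (2142.6 to 2316.6) and TER119-SIINFEKL (1778.7 to 2422.4). Cd4 stood at 0.2 to 1.3 RPKM. The labels do not say which animal each library came from, so p-values measure only the spread between these libraries.

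Itgb1 and Cd44 were called higher and Itgae lower in all 4 comparisons with Naive. Itga4 was called higher and Selplg lower after every antigen except SIINFEKL. Pecam1 was called higher after SIINFEKL and ERY1-OVA and Itgal after TER119-SIINFEKL, while Itgam and Spn were called in none of the 4. After OVA 3 of the 9 members were called higher and 2 lower, where 47.6% of all genes were called (24.4% higher and 23.1% lower). After ERY1-OVA 4 were higher and 2 lower, where 39.9% of all genes were called (20.9% and 19.0%). SIINFEKL gave 3 higher and 1 lower, against 15.9% of all genes (7.58% and 8.34%). TER119-SIINFEKL gave 4 higher and 2 lower, against 47.6% of all genes (24.6% and 23.0%). The median size of the difference was 0.63, 0.61, 0.57 and 0.87 for the members in that order, and 0.39, 0.34, 0.25 and 0.39 for all genes. The members were chosen with earlier results of these data known, so these counts and medians are description only. These 4 comparisons share the 3 Naive libraries.

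**Figure D1:**
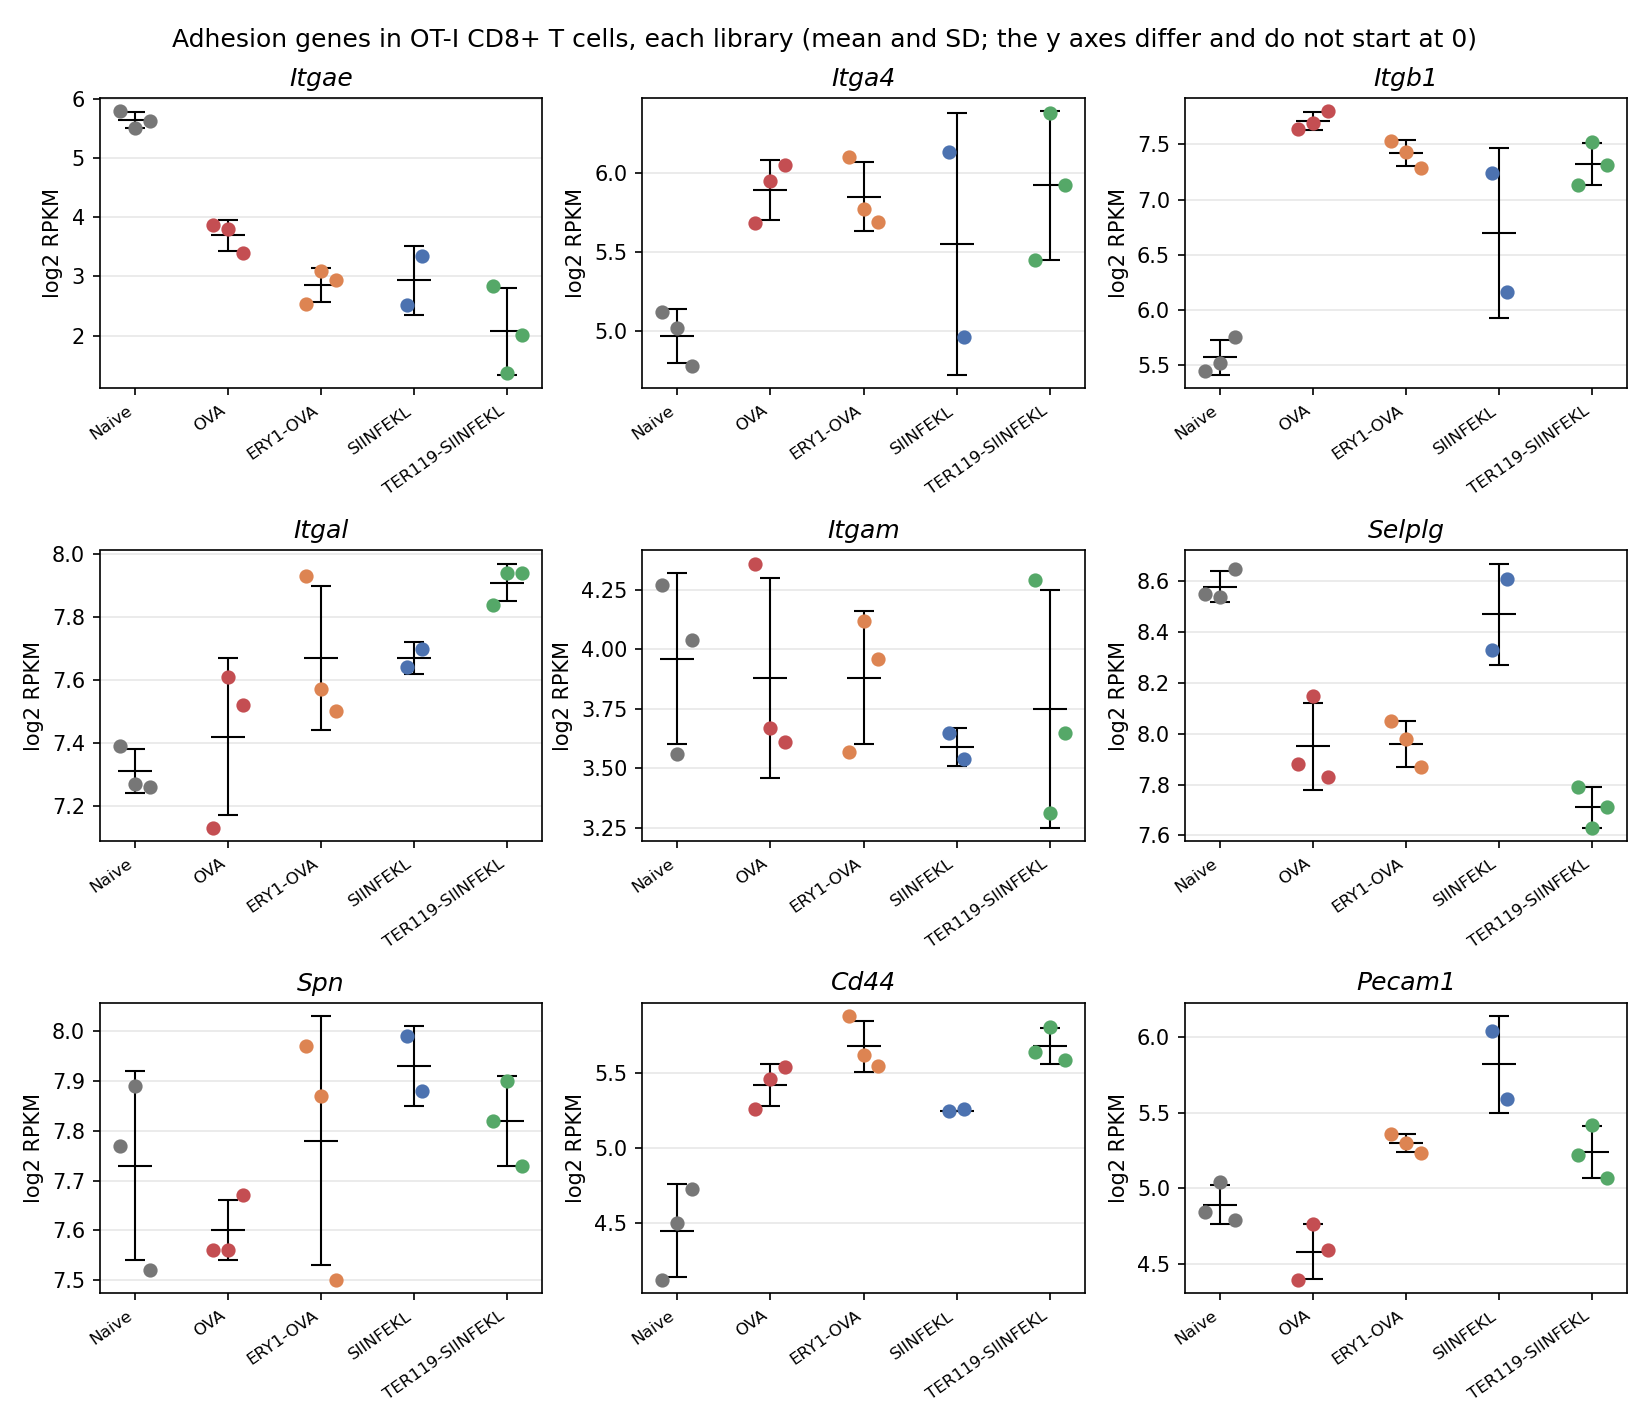
Log2 RPKM of the 9 adhesion genes (1 panel each, axes not starting at 0) in the 14 libraries, by group. Points are libraries and bars are the group mean and SD. Itgae falls from 5.51 to 5.79 in Naive to 3.87 or less elsewhere, Itgb1 and Cd44 lie above Naive in every antigen library, and Itgam overlaps between all groups.

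Itgae (CD103 alpha chain, GRCm38 chr11:73090583-73147446) showed the largest difference of the set. It stood at 5.79, 5.51 and 5.62 in the Naive libraries and at 3.87, 3.80 and 3.39 after OVA. The level was 2.53, 3.09 and 2.94 after ERY1-OVA, 2.51 and 3.35 after SIINFEKL, and 2.84, 1.37 and 2.01 after TER119-SIINFEKL. Every antigen library lay below every Naive library, and the OVA libraries lay above those of the 3 other antigen groups, which overlapped each other. In linear terms the mean fell from 50.11 ± 4.88 RPKM (SD, n = 3) to 4.58 ± 2.33 (SD, n = 3) after TER119-SIINFEKL. The fall from Naive was -1.95 ± 0.31 after OVA (adjusted p = 0.00021), -2.79 ± 0.31 after ERY1-OVA (1.3e-05), -2.72 ± 0.34 after SIINFEKL (0.00026) and -3.57 ± 0.31 after TER119-SIINFEKL (1.4e-06). All 4 calls held under each alternative run, the correction for gene length and GC content included. Within OVA and TER119-SIINFEKL the highest Itgae library was replicate 1, where long genes lay lowest (-0.47 and -0.46). The part of this in the spread of Itgae was not tested. In bulk RNA, fewer cells that express a gene and less RNA per cell cannot be told apart.

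The partner chain Itgb7 moved far less than Itgae. It lay at 8.25, 8.14 and 8.25 in Naive, between 7.85 and 8.20 after OVA, between 7.86 and 8.09 after ERY1-OVA, at 8.15 and 8.26 after SIINFEKL, and between 7.78 and 7.85 after TER119-SIINFEKL. Only the fall after TER119-SIINFEKL was called among the 4 comparisons with Naive (-0.40 ± 0.11, adjusted p = 0.0099). Per kilobase, Itgb7 exceeded Itgae 5.50 to 6.18 times in Naive and 31.27 to 89.12 times after TER119-SIINFEKL. The alpha chain of CD103 was the scarcer transcript in every library. Itgae overlaps Haspin (Gsg2 in the table) on the opposite strand, and the sources used here do not say whether counting used strand. Gsg2, a mitotic kinase gene, rose by 2.35 ± 0.25 after OVA and 1.91 ± 0.25 after TER119-SIINFEKL, opposite in direction to Itgae, and reached 6.31 RPKM at most.

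Itgb1 (the beta1 chain, GRCm38 chr8:128685654-128733200) rose in every antigen group. Naive libraries held 5.45, 5.52 and 5.76. The values were 7.64, 7.69 and 7.80 after OVA, 7.53, 7.43 and 7.29 after ERY1-OVA, and 7.13, 7.52 and 7.31 after TER119-SIINFEKL. The 2 SIINFEKL libraries differed, with 7.24 in replicate 1 and 6.16 in replicate 2, but both lay above Naive. The rise was 2.13 ± 0.21 after OVA (4.39-fold, adjusted p = 3.5e-06), 1.84 ± 0.21 after ERY1-OVA (1.6e-05), 1.13 ± 0.23 after SIINFEKL (0.0066) and 1.75 ± 0.21 after TER119-SIINFEKL (1.8e-05). The call after SIINFEKL was lost without SIINFEKL replicate 1 (0.58, adjusted p = 0.086) and with only those 2 groups in the fit (adjusted p = 0.057).

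Itga4 (the alpha4 chain, GRCm38 chr2:79255426-79333123) rose by a smaller amount. Its values were 5.12, 5.02 and 4.78 in Naive, 5.68, 5.95 and 6.05 after OVA, and 6.10, 5.77 and 5.69 after ERY1-OVA. They were 6.13 and 4.96 after SIINFEKL and 5.45, 6.38 and 5.92 after TER119-SIINFEKL. All libraries of OVA, ERY1-OVA and TER119-SIINFEKL lay above Naive, whereas SIINFEKL replicate 2 lay among the Naive values. The rise was 0.92 ± 0.27 after OVA (adjusted p = 0.013), 0.88 ± 0.27 after ERY1-OVA (0.019) and 0.95 ± 0.27 after TER119-SIINFEKL (0.011). The ERY1-OVA call was lost without ERY1-OVA replicate 1 (0.75, adjusted p = 0.065) or Naive replicate 3 (0.78, 0.071), and the TER119-SIINFEKL call without its replicate 2 (0.71, 0.052). After SIINFEKL the difference was 0.57 (95% confidence interval -0.07 to 1.22, adjusted p = 0.21). It was -0.02 (adjusted p = 0.99) without SIINFEKL replicate 1, and 1.16 and called (adjusted p = 0.0094) without SIINFEKL replicate 2. Itga4 overlaps Cerkl on the opposite strand, which stood at 0.48 to 2.38 RPKM and was called higher in all 4 antigen groups (1.10 to 1.52).

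Because alpha4 pairs with either beta1 or beta7, the chains were set beside each other per kilobase. Itgb7 exceeded Itgb1 5.62 to 6.99 times in Naive, 1.03 to 1.43 times after OVA, 1.34 to 1.51 times after ERY1-OVA and 1.26 to 1.59 times after TER119-SIINFEKL. In SIINFEKL the ratio was 1.88 in replicate 1 and 4.30 in replicate 2. The ratio in Naive did not overlap that of any antigen group, and Itgb7 stayed the more abundant of the 2 beta chains in all 14 libraries. Itga4 was the scarcest of the 3 throughout, with Itgb1 at 1.25 to 1.97 times Itga4 in Naive and 3.34 to 3.90 times after OVA. These are transcript ratios, and protein was not measured.

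**Figure D2:**
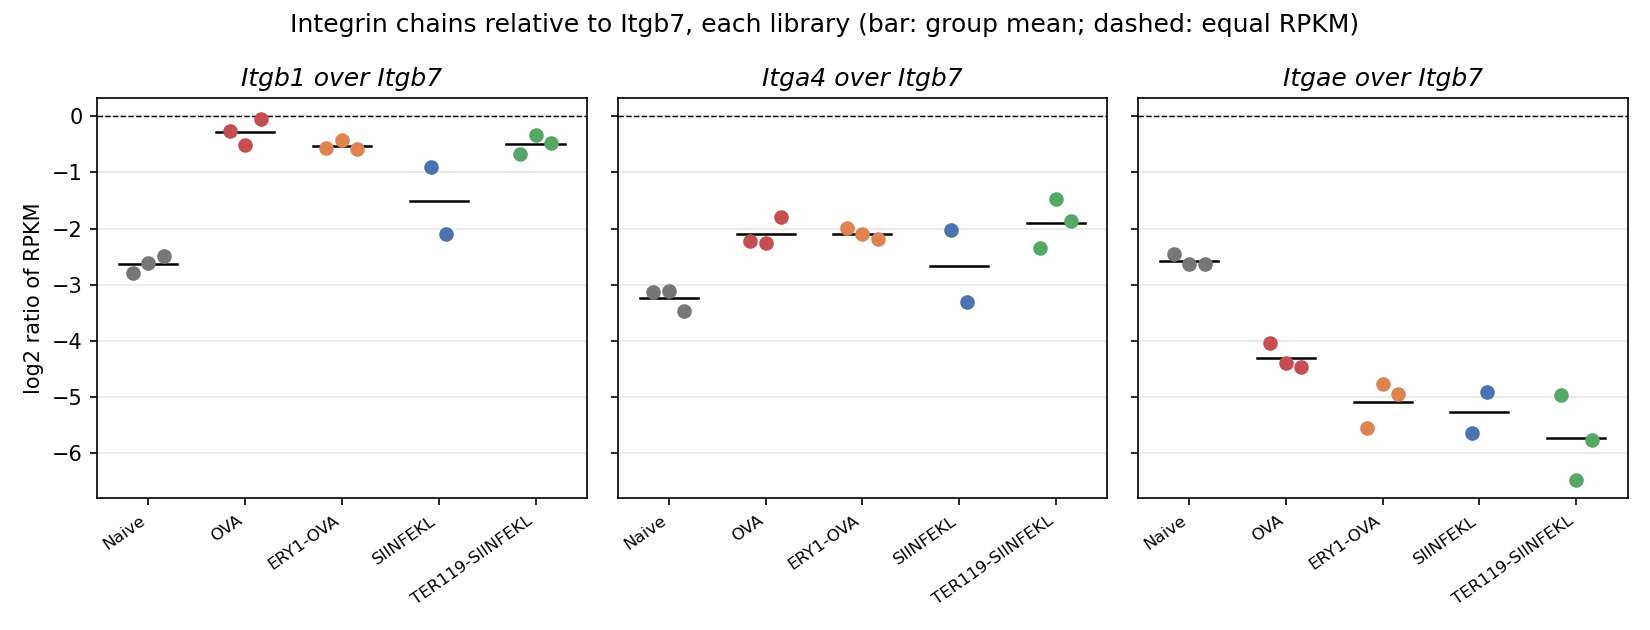
Log2 ratio of Itgb1, Itga4 and Itgae to Itgb7 in each library (points), with the group mean (bar) and equal RPKM (dashed line). The Itgb1 ratio moves from a mean of -2.64 in Naive to -0.27 after OVA, with the SIINFEKL libraries at -0.91 and -2.10, while the Itgae ratio falls from -2.57 to -5.74 after TER119-SIINFEKL.

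Itgb1, Itga4 and Cd44 rose together after 3 of the antigens, and the 250 bases before their start sites are shown for that reason. RefSeq promoters (GRCm38.p6) matched 5 of the 9 members. Capitals mark matches, on either strand, to ACCACA (RUNX), TGANTCA (AP-1), GGGCGG (the GC box of Sp and KLF factors) and CAGAC (the SMAD core), and no 2 matches overlap. Sequences read 5′ to 3′ on the gene's strand.
Itgb1, chr8:128685404-128685653, plus strand: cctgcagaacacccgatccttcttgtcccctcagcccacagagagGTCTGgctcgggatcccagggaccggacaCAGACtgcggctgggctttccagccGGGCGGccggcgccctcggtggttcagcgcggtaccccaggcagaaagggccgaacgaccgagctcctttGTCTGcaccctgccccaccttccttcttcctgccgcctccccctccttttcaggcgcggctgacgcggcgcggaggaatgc
Itga4, chr2:79255176-79255425, plus strand: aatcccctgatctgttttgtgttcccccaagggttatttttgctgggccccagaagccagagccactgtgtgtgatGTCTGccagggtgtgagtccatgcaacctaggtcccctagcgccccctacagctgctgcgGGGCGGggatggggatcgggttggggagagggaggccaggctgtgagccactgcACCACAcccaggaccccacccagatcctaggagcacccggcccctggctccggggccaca
Cd44, chr2:102901666-102901915, minus strand: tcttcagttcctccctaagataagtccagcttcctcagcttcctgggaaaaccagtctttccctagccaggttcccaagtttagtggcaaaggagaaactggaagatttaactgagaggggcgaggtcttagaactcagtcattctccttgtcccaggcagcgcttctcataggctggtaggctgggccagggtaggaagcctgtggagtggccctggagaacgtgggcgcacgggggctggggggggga
The Itgb1 window held 1 GC box and 3 SMAD cores, the Itga4 window 1 RUNX match, 1 GC box and 1 SMAD core, and the Cd44 window 0 matches to the 4 motifs. Over 32851 promoter windows of the same length, 4614 held the RUNX letters (14%), and 6.75% held the AP-1 letters, 32.7% the GC box and 42.2% the SMAD core. The 3 windows shared no motif of these 4.

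Cd44 (GRCm38 chr2:102811141-102901665) was higher in all antigen groups. Its values were 4.12, 4.50 and 4.73 in Naive, 5.26, 5.46 and 5.54 after OVA, 5.88, 5.62 and 5.55 after ERY1-OVA, 5.25 and 5.26 after SIINFEKL, and 5.64, 5.81 and 5.59 after TER119-SIINFEKL. Every antigen library exceeded every Naive library, and the ERY1-OVA and TER119-SIINFEKL libraries lay above all OVA and SIINFEKL libraries. The lowest ERY1-OVA value (5.55) barely exceeded the highest OVA value (5.54). By limma ERY1-OVA against OVA was not called (0.26 ± 0.14, adjusted p = 0.4). The rise was 0.97 ± 0.14 after OVA (adjusted p = 0.00015), 1.23 ± 0.14 after ERY1-OVA (2.4e-05), 0.80 ± 0.16 after SIINFEKL (0.006) and 1.23 ± 0.14 after TER119-SIINFEKL (1.8e-05). In linear terms the means rose from 22.24 ± 4.59 RPKM (SD, n = 3) in Naive to at most 51.58 ± 6.30 (SD, n = 3) after ERY1-OVA. The SIINFEKL call was lost without SIINFEKL replicate 1 at an unchanged value (adjusted p = 0.052).

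Another list held genes that tie CD44 and the mucins to the actin cortex through ezrin, radixin and moesin. Of 11 tested, 1 was higher and 3 lower after OVA, 0 and 2 after ERY1-OVA, and 0 and 3 after TER119-SIINFEKL, where 47.6%, 39.9% and 47.6% of all genes were called. After SIINFEKL limma called 0, where 15.9% of all genes were called, and 2 had an unadjusted p under 0.05. The OVA count was 2 without Naive replicate 3 or OVA replicate 3, and the SIINFEKL count was 1 without SIINFEKL replicate 2 or TER119-SIINFEKL replicate 1. Pip5k1c, a kinase that makes the lipid these linkers bind, fell by 0.61 after OVA, 0.84 after ERY1-OVA and 1.12 after TER119-SIINFEKL, while radixin (Rdx) rose by 0.38 ± 0.12 after OVA. The Rdx difference was 0.33 and not called when OVA replicate 3 was left out, and 0.29 and not called when Naive replicate 3 was. The list's median lay between -0.18 and -0.10 in the 4 comparisons, against -0.04 to 0.00 over all genes.

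Itgal, the alpha chain of LFA-1 (GRCm38 chr7:127296260-127335138), was abundant in every group. It stood at 7.39, 7.27 and 7.26 in Naive, 7.13, 7.61 and 7.52 after OVA, 7.93, 7.57 and 7.50 after ERY1-OVA, 7.64 and 7.70 after SIINFEKL, and 7.84, 7.94 and 7.94 after TER119-SIINFEKL. The TER119-SIINFEKL libraries lay above all Naive, OVA and SIINFEKL libraries. Only the rise after TER119-SIINFEKL was called (0.60 ± 0.14, 1.51-fold, adjusted p = 0.0029), and it held under every alternative run. ERY1-OVA gave 0.36 ± 0.14 at an adjusted p of 0.051, which passed in 7 of the 25 alternatives, and SIINFEKL gave 0.36 ± 0.15 (0.12). Its beta chain Itgb2 lay between 7.51 and 7.97 in all libraries and was called in none of the 9 comparisons, with differences from Naive of -0.07 to 0.04. Itgal was at 0.685 to 0.739 times Itgb2 in Naive and at 0.915 to 1.166 times after TER119-SIINFEKL.

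Itgam (the alpha chain of Mac-1, best known from myeloid cells, GRCm38 chr7:128062640-128118491) was the least abundant member in the antigen-free state. Its values were 4.27, 3.56 and 4.04 in Naive, 4.36, 3.67 and 3.61 after OVA, 3.57, 4.12 and 3.96 after ERY1-OVA, 3.65 and 3.54 after SIINFEKL, and 4.29, 3.31 and 3.65 after TER119-SIINFEKL. All groups overlapped and no comparison was called, nor did any have an unadjusted p under 0.05 by limma, with differences from Naive of -0.36 to -0.07 and confidence intervals within -0.99 to 0.49. The libraries instead fell into a high and a low set within groups. The 6 libraries in which long genes lay low held 3.96 to 4.36, and the other 8 held 3.31 to 3.67, so that the sets did not overlap. None of the other 8 members separated the libraries in this way, though others varied with the length measure. The deviation from the group mean correlated with it at -0.96 for Itgam, 0.72 for Itgal and -0.70 for Itgae (Pearson r, 14 libraries). For the remaining members the value was 0.01 to 0.53. The exon length was 5024 bases for Itgam, 6569 for Itgal and 4581 for Itgae, and 4081 to 13978 for the remaining members. The genes most like Itgam over the 14 libraries were Gm2000, Rpl35 and Rps25 (r = 0.99, 0.99 and 0.98), of which the latter pair encode ribosomal proteins. Itgam overlaps the annotated gene Gm49368 on the same strand, and reads of the 2 may not be told apart. Of 15 myeloid markers listed, 5 had values (Lyz2, Cd68, Ly6c2, Fcer1g and Tyrobp). They summed to 370.3 to 647.0 RPKM in Naive, 367.0 to 428.7 after OVA and 183.3 to 303.0 after ERY1-OVA. The sums were 122.8 to 483.1 after SIINFEKL and 210.7 to 296.6 after TER119-SIINFEKL. Cd68 alone was called higher after OVA, ERY1-OVA and TER119-SIINFEKL (0.88, 1.24 and 1.26). Lyz2, Ly6c2, Fcer1g and Tyrobp were not called against Naive. The part of the length measure and of these markers in the Itgam level was not tested.

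**Figure D3:**
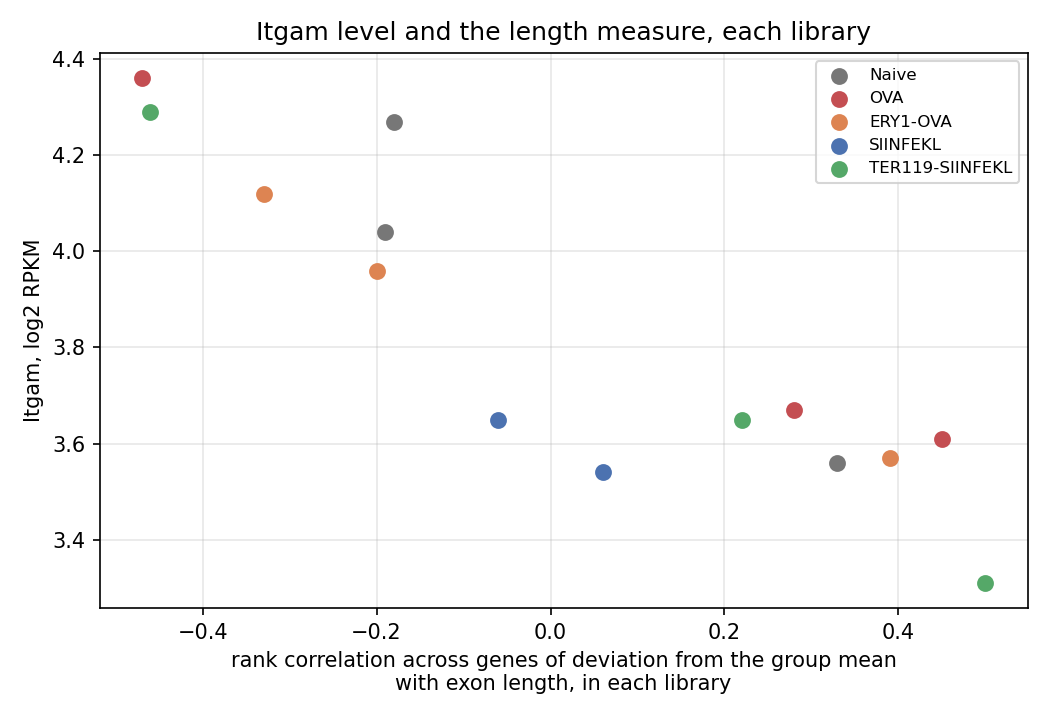
Itgam (log2 RPKM, vertical axis) against the rank correlation, across genes, of the deviation from the group mean with exon length (horizontal axis), 1 point per library and colored by group. The 6 libraries at -0.18 or less hold 3.96 to 4.36 and the 8 others 3.31 to 3.67; the split was seen after the values were known.

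Selplg (PSGL-1, GRCm38 chr5:113818536-113832644) was the most abundant member by its median over the libraries (258.51 RPKM) and fell after 3 of the 4 antigens. Naive libraries held 8.55, 8.54 and 8.65. The values were 7.88, 8.15 and 7.83 after OVA, 8.05, 7.98 and 7.87 after ERY1-OVA and 7.79, 7.63 and 7.71 after TER119-SIINFEKL. After SIINFEKL they were 8.33 and 8.61, the second within the Naive range. The fall was -0.63 ± 0.11 after OVA (adjusted p = 0.0007), -0.61 ± 0.11 after ERY1-OVA (0.00098) and -0.87 ± 0.11 after TER119-SIINFEKL (4.6e-05). After SIINFEKL the difference was -0.11 (95% confidence interval -0.39 to 0.17, adjusted p = 0.6).

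Spn (CD43, GRCm38 chr7:127132232-127137823) was called in none of the 9 comparisons. It stood at 7.77, 7.89 and 7.52 in Naive, 7.56, 7.56 and 7.67 after OVA, 7.97, 7.87 and 7.50 after ERY1-OVA, 7.99 and 7.88 after SIINFEKL, and 7.82, 7.90 and 7.73 after TER119-SIINFEKL. Its differences from Naive lay between -0.13 and 0.21, with confidence intervals within -0.41 to 0.52. The 1 comparison with an unadjusted p under 0.05 was OVA against SIINFEKL (-0.34 ± 0.15, adjusted p = 0.08). That value passed in 3 of the 25 alternatives, after quantile normalization (-0.65, adjusted p = 0.0074), when ERY1-OVA replicate 3 was left out (-0.34, 0.048) and when corrected for length and GC content (-0.41, 0.037).

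PSGL-1 and CD43 bind selectins only after modifications that include sialylation, core branching and, for PSGL-1, tyrosine sulfation. Of 19 tested genes for selectins and these modifications, 2 were higher and 6 lower after OVA, 4 and 5 after ERY1-OVA, 1 and 2 after SIINFEKL, and 7 and 5 after TER119-SIINFEKL. The shares of all genes called were 47.6%, 39.9%, 15.9% and 47.6% in that order. The ERY1-OVA count of 9 was 5 without Naive replicate 1, and 4 with either ERY1-OVA replicate 2 or Naive replicate 3 left out. The SIINFEKL count of 3 was 1 without Naive replicate 1 or 3 and 7 without SIINFEKL replicate 2. Without SIINFEKL replicate 1 limma called 0, and 2 had an unadjusted p under 0.05. The galactosyltransferase B4galt1 fell by 0.55 after OVA, 0.45 after ERY1-OVA and 0.81 after TER119-SIINFEKL. The fucosyltransferase gene Fut7 rose by 1.98 ± 0.64 after ERY1-OVA (adjusted p = 0.025 by limma) and 2.27 ± 0.64 after TER119-SIINFEKL (0.01). It was not called after OVA or SIINFEKL. With 1 library left out, 0 to 5 genes of the list were called higher after ERY1-OVA, so the Fut7 call there did not hold in each such fit. The 2 tyrosine sulfotransferases moved apart after OVA, ERY1-OVA and TER119-SIINFEKL. After SIINFEKL Tpst2 was called lower (-0.38 ± 0.11) and Tpst1 was not called. Tpst1 rose by 1.29 ± 0.20 after OVA, from 1.96 to 2.75 RPKM in Naive to 5.56 to 6.04. Tpst2 fell by 0.38 ± 0.10 after OVA, 0.64 ± 0.10 after ERY1-OVA and 0.83 ± 0.10 after TER119-SIINFEKL. Galnt10, which starts mucin-type chains, fell by 0.77 ± 0.22 after OVA, 0.96 ± 0.22 after ERY1-OVA and 1.42 ± 0.22 after TER119-SIINFEKL. After SIINFEKL it fell by 1.02 ± 0.25, but the difference was -0.42 and not called without SIINFEKL replicate 1 (adjusted p = 0.23) and -1.63 without replicate 2.

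Pecam1 (GRCm38 chr11:106654217-106750628) was highest after SIINFEKL and lowest after OVA. Its values were 4.84, 5.04 and 4.79 in Naive, 4.39, 4.76 and 4.59 after OVA, 5.36, 5.30 and 5.23 after ERY1-OVA, 6.04 and 5.59 after SIINFEKL, and 5.22, 5.42 and 5.07 after TER119-SIINFEKL. The SIINFEKL libraries lay above all others and the OVA libraries below all others, while ERY1-OVA and TER119-SIINFEKL overlapped. The rise was 0.92 ± 0.15 after SIINFEKL (1.90-fold, adjusted p = 0.0018) and 0.40 ± 0.14 after ERY1-OVA (0.032). TER119-SIINFEKL gave 0.34 ± 0.14 (0.053), which passed in 6 of the 25 alternatives (adjusted p = 0.031 to 0.046). OVA gave -0.31 ± 0.14 (0.075), which passed in 5 (adjusted p = 0.022 to 0.045). The ERY1-OVA call was lost without any 1 of its libraries, without Naive replicate 1 or 3 and with quantile normalization (0.32 to 0.43). Endothelial cells are the best known source of PECAM-1. Of 10 endothelial markers listed, 1 had a value, Eng, at 7.8 to 13.5 RPKM in Naive and 2.6 to 5.1 in the antigen libraries, and its part in the Pecam1 level was not tested.

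Among 24 tested adhesion molecules of the immunoglobulin superfamily and related proteins, 5 were higher and 8 lower after OVA, 6 and 5 after ERY1-OVA, 3 and 3 after SIINFEKL, and 7 and 8 after TER119-SIINFEKL. All genes were called at 47.6%, 39.9%, 15.9% and 47.6% in these comparisons. The SIINFEKL count of 6 was 3 without SIINFEKL replicate 1. Alcam (CD166, a ligand of CD6) rose most, by 3.70 ± 0.44 after OVA, 4.19 ± 0.44 after ERY1-OVA, 3.53 ± 0.49 after SIINFEKL and 5.13 ± 0.44 after TER119-SIINFEKL. It went from 0.21 to 0.51 RPKM in Naive to 8.06 to 12.79 after TER119-SIINFEKL. The 2 SIINFEKL libraries lay apart at 7.03 and 1.61 RPKM, and the Alcam difference from Naive was 2.47 without SIINFEKL replicate 1 and 4.59 without replicate 2, called in both. Crtam, an adhesion receptor of activated CD8+ T cells, stood at 18.99 to 22.70 RPKM in Naive, 34.46 to 37.34 after OVA, 47.40 to 51.33 after ERY1-OVA, 31.74 to 38.99 after SIINFEKL and 70.08 to 74.34 after TER119-SIINFEKL. It was called in all 4 comparisons with Naive (0.78 to 1.81). The junctional adhesion gene Amica1 fell by 2.49 ± 0.30 after TER119-SIINFEKL, and the tetraspanin Cd82 fell by 0.61 ± 0.09 after ERY1-OVA.

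**Figure D4:**
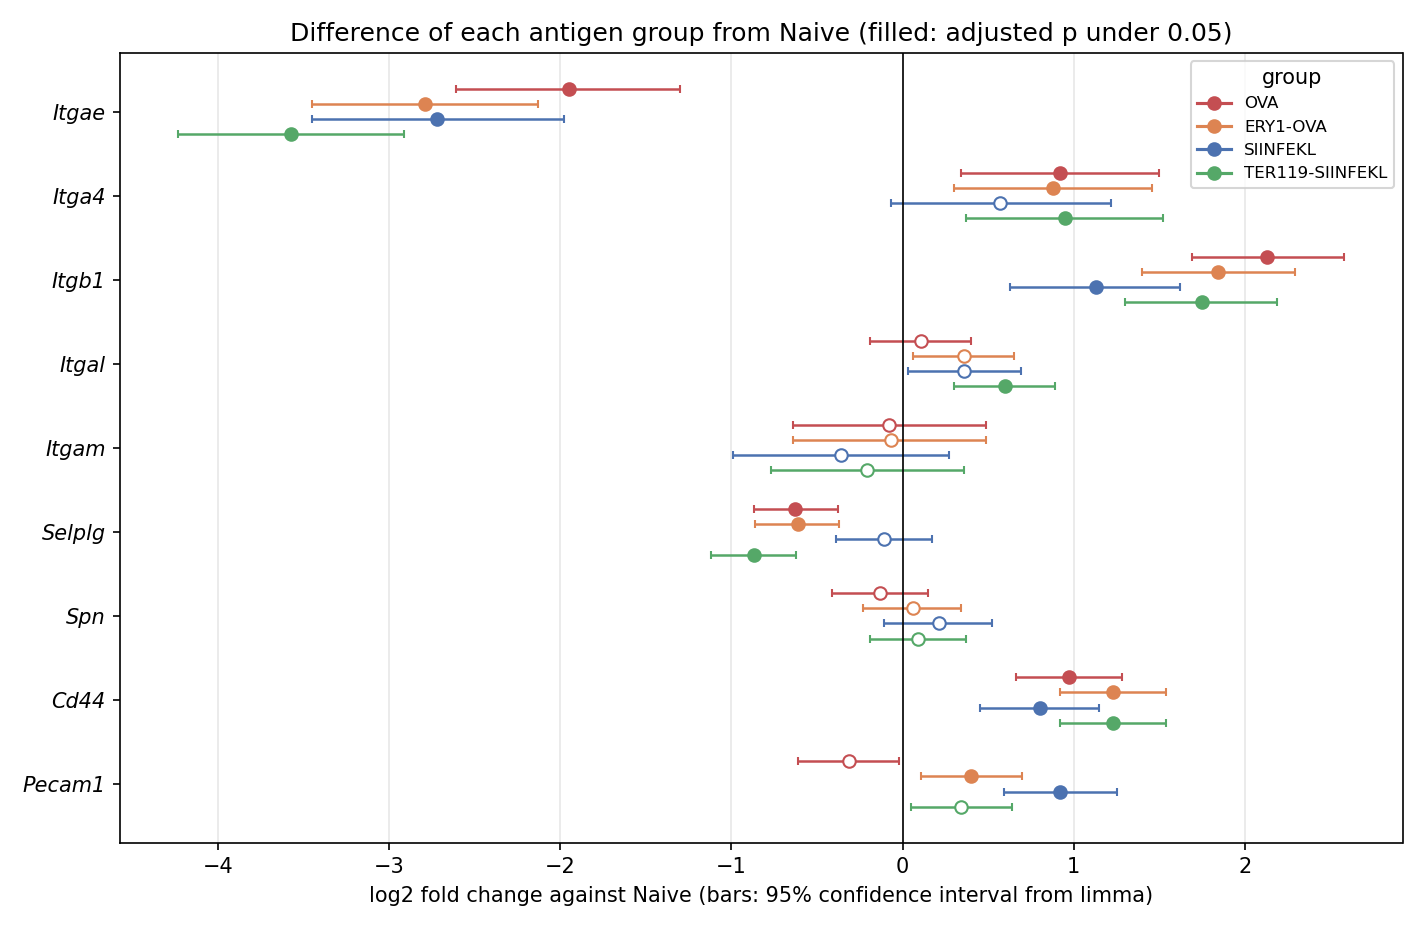
Log2 fold change of each member against Naive (horizontal axis) in the 4 antigen groups, with 95% confidence intervals from limma; filled points have an adjusted p under 0.05. Itgae lies at -1.95 to -3.57, Itgb1 at 1.13 to 2.13 and Cd44 at 0.80 to 1.23, all filled, and no Itgam or Spn point is filled.

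Of 22 other integrin chains listed, 10 had values and 6 passed the filter. Against Naive 2 were called after OVA, 0 after ERY1-OVA (1 with an unadjusted p under 0.05 by limma), 1 after SIINFEKL and 2 after TER119-SIINFEKL, beside the 47.6%, 39.9%, 15.9% and 47.6% of all genes. After OVA Itga6, a laminin receptor chain, fell (-0.42 ± 0.16, adjusted p = 0.045) and Itgax, known from dendritic cells and some activated CD8+ T cells, rose (0.84 ± 0.32, 0.046). The level of Itgax was low, at 0.8 to 2.4 RPKM in Naive and 2.4 to 3.2 after OVA. Itga6 rose after SIINFEKL (0.70 ± 0.18, 0.019), and after TER119-SIINFEKL Itgb7 and Itgb3 fell (-0.40 and -0.46). Each of these calls except that of Itgb7 was lost when some single library was left out. Without OVA replicate 1 the Itga6 difference after OVA was -0.26, without Naive replicate 2 that of Itgax was 0.38, and without SIINFEKL replicate 1 that of Itga6 after SIINFEKL was 0.55.

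Of 35 tested genes that switch integrins on or link them to actin, 8 were higher and 10 lower after OVA, 8 and 7 after ERY1-OVA, 6 and 0 after SIINFEKL, and 5 and 10 after TER119-SIINFEKL. Beside these counts stand 47.6%, 39.9%, 15.9% and 47.6% of all genes called. The SIINFEKL count was 3 without Naive replicate 2 or 3, and without SIINFEKL replicate 1 limma called 0, with 6 at an unadjusted p under 0.05. The ERY1-OVA count of 15 was 9 without Naive replicate 2 or ERY1-OVA replicate 3, and the TER119-SIINFEKL count of 15 was 8 without Naive replicate 2. The small GTPase gene Rap1a, whose product activates LFA-1 and VLA-4, rose by 0.84 ± 0.14 after ERY1-OVA and 0.83 ± 0.14 after TER119-SIINFEKL. It was also called higher after OVA (0.58 ± 0.14) and SIINFEKL (0.60 ± 0.16). Rapgef2, a Rap exchange factor, fell by 1.00 ± 0.18 after OVA, 0.87 ± 0.18 after ERY1-OVA and 1.09 ± 0.18 after TER119-SIINFEKL. Rasgrp2, the exchange factor CalDAG-GEFI, rose by 0.68 ± 0.14 after OVA, 0.58 ± 0.14 after ERY1-OVA and 0.72 ± 0.15 after SIINFEKL. The SIINFEKL call of Rasgrp2 was lost without SIINFEKL replicate 1 (0.61). The adaptor Lims1 rose by 0.69 ± 0.12 after ERY1-OVA, 0.72 ± 0.14 after SIINFEKL and 0.74 ± 0.12 after TER119-SIINFEKL, and was not called after OVA. Neither Rap1a nor Lims1 was called between the coupled and the free form of either antigen. The medians of the list (-0.13 to 0.06) lay near those of all genes.

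TGF-beta is known to induce Itgae in T cells, and genes of its pathway were listed for that reason. Of 16 tested, 10 were lower after OVA, 9 after ERY1-OVA, 4 after SIINFEKL and 12 after TER119-SIINFEKL, and 0 were higher in any of the 4. Over all genes, 23.1%, 19.0%, 8.34% and 23.0% were called lower. The SIINFEKL count was 1 without SIINFEKL replicate 1 and 9 without replicate 2. The receptor Tgfbr2 stood at 74.88 to 86.99 RPKM in Naive and 35.09 to 45.14 after OVA (-1.02 ± 0.14). Smad7, an inhibitor of the pathway that TGF-beta itself induces, fell by 1.50 ± 0.19 after ERY1-OVA, 0.91 ± 0.22 after SIINFEKL and 2.41 ± 0.19 after TER119-SIINFEKL. The Smad7 call after SIINFEKL was lost without SIINFEKL replicate 1 at an unchanged value (adjusted p = 0.1). Ski, a corepressor of SMAD proteins, fell by 1.19 ± 0.17 after ERY1-OVA and 1.52 ± 0.17 after TER119-SIINFEKL. The list therefore holds inhibitors as well as receptors among the genes that fell.

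Coupling to erythrocytes was then compared with the free form of each antigen. For the protein, ERY1-OVA against OVA, 1 member was called higher and 0 lower, where 1.06% of all genes were called (0.408% higher and 0.654% lower). It was Pecam1, higher by 0.72 ± 0.14 (1.64-fold, adjusted p = 0.03). The call was lost without any 1 library of either group or without TER119-SIINFEKL replicate 3, with values of 0.62 to 0.80. Itgae differed by -0.84 ± 0.31 (95% confidence interval -1.50 to -0.18, adjusted p = 0.18), and its ERY1-OVA libraries all lay below the OVA libraries. Selplg, Itga4 and Itgam differed by 0.01, -0.04 and 0.01, with confidence intervals of -0.23 to 0.26, -0.62 to 0.54 and -0.56 to 0.57.

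For the peptide, TER119-SIINFEKL against SIINFEKL, 3 members were called, 1 higher and 2 lower, where 37.4% of all genes were called (20.4% higher and 17.0% lower). Selplg was lower by -0.76 ± 0.13 (1.70-fold, adjusted p = 0.00056) and held under every alternative run. Pecam1 was lower by -0.58 ± 0.15 (0.0098), a call lost without SIINFEKL replicate 1 (-0.36, 0.13) and with only the 2 groups in the fit (0.061). Itgb1 was higher by 0.62 ± 0.23 at an adjusted p of 0.049, although SIINFEKL replicate 1 (7.24) lay within the range of TER119-SIINFEKL. That call was lost in 19 of the 25 alternatives, and the value was 0.08 without SIINFEKL replicate 2. Cd44 (0.43 ± 0.16, adjusted p = 0.052) and Itgae (-0.86 ± 0.34, 0.064) did not pass. Cd44 passed in 5 of the 25 alternatives (adjusted p = 0.026 to 0.049). Itgae passed at -1.27 (0.029) without SIINFEKL replicate 1 and at -1.24 (0.0057) without TER119-SIINFEKL replicate 1, and was -0.44 without SIINFEKL replicate 2. Of the TGF-beta pathway genes 9 of 16 were lower and 0 higher, with Smad7 at -1.50 ± 0.22.

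The 2 targeting effects were tested against each other as a difference of differences, for which 37.7% of all genes were called (17.1% higher and 20.6% lower). Pecam1 (1.29 ± 0.21, adjusted p = 0.00042) and Selplg (0.78 ± 0.17, 0.0037) were called higher. Pecam1 was higher in the coupled than the free form for protein and lower for peptide, while Selplg differed by 0.01 for protein and -0.76 for peptide. Both calls held under every alternative run. Itgb1 was called lower (-0.91 ± 0.31, 0.033), a call lost in 10 of the 25 alternatives and at -0.37 (0.19) without SIINFEKL replicate 2. The Itgae difference was 0.02, with a confidence interval of -0.97 to 1.00, which leaves room for unequal effects. Of the other chains, Itga6 was called at 1.27 ± 0.24 (0.0013) and Itgax at -1.92 ± 0.48 (0.0076). Itgax was near the filter, at 0.8 to 3.2 RPKM in the 14 libraries and 0.8 to 1.2 after SIINFEKL.

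**Figure D5:**
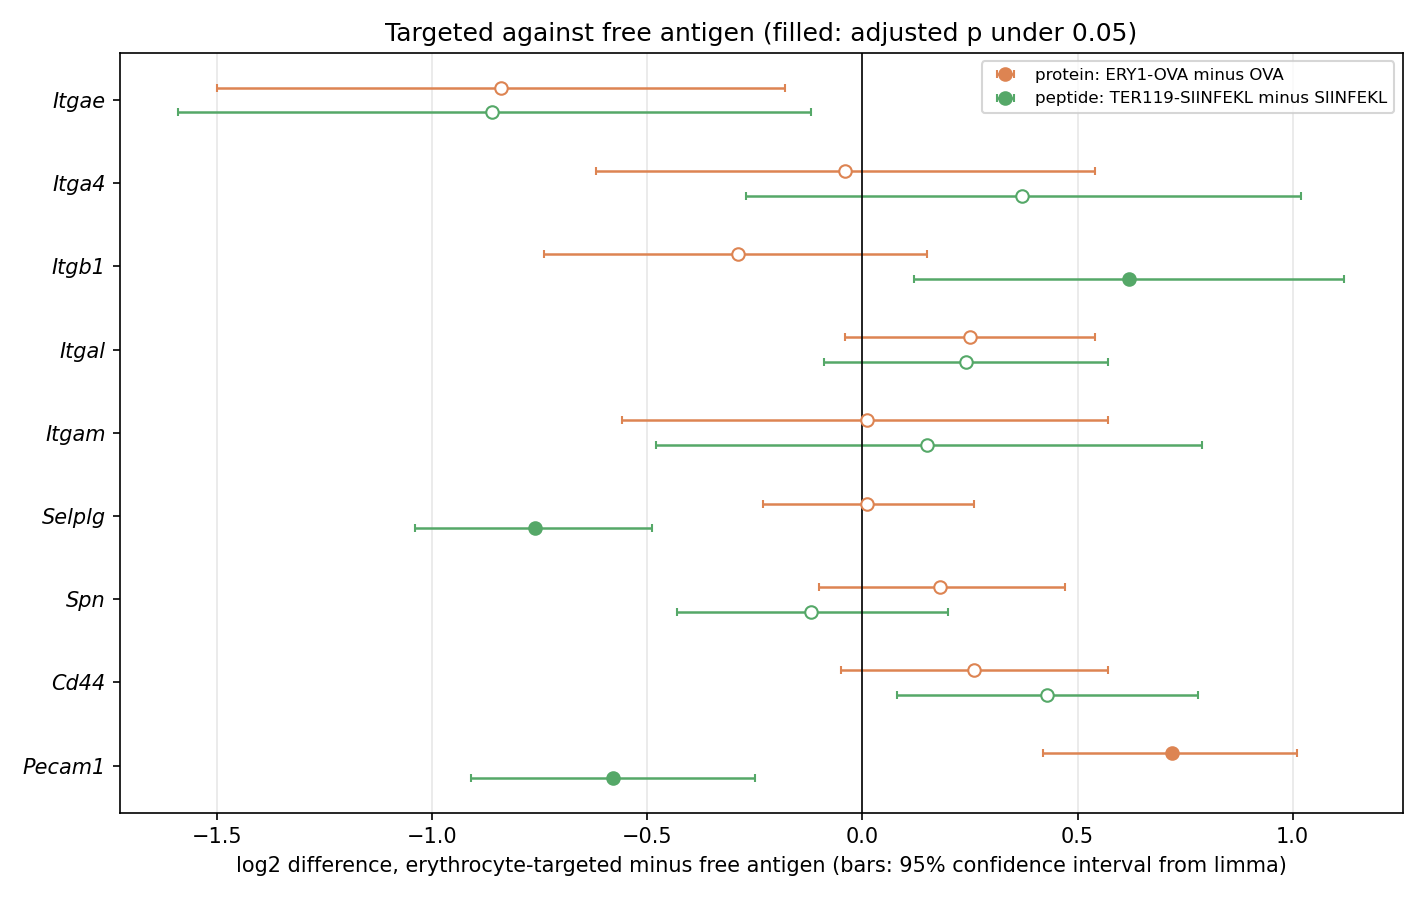
Log2 difference between erythrocyte-targeted and free antigen for each member (horizontal axis), for protein and for peptide, with 95% confidence intervals from limma; filled points have an adjusted p under 0.05. Pecam1 lies at 0.72 for protein and -0.58 for peptide, Selplg at 0.01 and -0.76, and Itgae at -0.84 and -0.86 with neither filled.

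The free forms were compared with each other, and so were the coupled forms. OVA against SIINFEKL called 3 members, where 42.2% of all genes were called (22.4% higher and 19.9% lower). Itgb1 was higher by 1.01 ± 0.23 (adjusted p = 0.0035), and Selplg (-0.52 ± 0.13, 0.0058) and Pecam1 (-1.24 ± 0.15, 4.4e-05) were lower. The Selplg call was lost without SIINFEKL replicate 2 (-0.38, 0.075) and with only the 2 groups in the fit (0.06). ERY1-OVA against TER119-SIINFEKL called 0 of the 9 members by limma, where 0.562% of all genes were called (0.0715% higher and 0.49% lower). At an unadjusted p under 0.05 there were 2, Itgae (0.78 ± 0.31, adjusted p = 0.35) and Selplg (0.26 ± 0.11, adjusted p = 0.44). The intervals for the other members ran from -0.64 to 0.70.

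Across all 14 libraries the members that rose or fell against Naive also ran with or against each other. Itgb1 correlated with Cd44 (Pearson r = 0.88) and Itga4 (0.87), Itgae with Cd44 at -0.90 and with Selplg at 0.76, and Spn with Pecam1 at 0.72, while Itgb1 and Pecam1 gave 0.00. These points share groups and libraries, so the values describe the pattern and carry no test. The genes most like Itgae were Ifngr2, Fam211b and Ncf1 (0.99, 0.98 and 0.97). For Itgb1 they were Crmp1, E2f2 and Slc43a3 (0.98 each), for Cd44 Pou2af1, Fam221a and Ptpn7 (0.96, 0.96 and 0.95), and for Selplg Acss1, Thra and Foxj2 (0.98, 0.97 and 0.97). Pecam1 ran closest to Ipcef1, Syt11 and Gm2a (0.95, 0.95 and 0.94), Itgal to Nucb1, Lcp2 and Tspan5 (0.95, 0.94 and 0.93), and Itga4 to Armcx4, Luc7l2 and Rnf216 (0.97, 0.95 and 0.95). Spn had the weakest likeness, with Ints6, Gpr107 and Fam63b at 0.90, 0.89 and 0.89.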

How the data were processed

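The authors deposited log2 RPKM per gene for 14 libraries. Per the submitters' processing notes, the builds were GRCm38 and mm10 and the tools edgeR, STAR (2.4.2) and bcl2fastq (2.17.1.14), with no role given for any. Libraries were stranded and poly(A) selected, per the labels' protocols. The counter, its use of strand, gene lengths, normalization and prior count are not given in the sources used here. Base 2 is inferred, and 4.3% of the values were below 0. The table holds no counts, so no counting interval is given.

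The values were used as deposited. A minimum mean RPKM of 1 removed 313 of 10106 genes and left 9793. All 14 libraries entered 1 linear model of 5 group means in limma (3.58.1, R 4.3.3), moderated along a mean-variance trend, with 9 residual and 4.6 prior df. It assumes that each group varies alike. Tests were two-sided, with Benjamini-Hochberg adjustment within each of 9 comparisons. The fit was tested on simulated data. The labels tie same-numbered libraries to no shared animal or batch. Of 26 correlations between the deviations of same-numbered libraries, 14 were over 0.1 (-0.443 to 0.665). All 3 were over 0.1 between Naive and TER119-SIINFEKL (0.259 to 0.322) and between OVA and TER119-SIINFEKL (0.247 to 0.665), and in no other pair of groups with 3. Same-numbered libraries of TER119-SIINFEKL may therefore be paired with those of Naive and of OVA, judged from the data alone. The rank correlation with exon length was -0.18, 0.33 and -0.19 in Naive replicates 1 to 3. It was -0.47, 0.28 and 0.45 in OVA and -0.46, 0.50 and 0.22 in TER119-SIINFEKL. Its part in the correlations between libraries was not tested. The main results, for TER119-SIINFEKL against Naive too, come from the fit without a replicate term. With a replicate term limma changed no member's call in that comparison, and the adjusted p was 6.6e-06 for Itgae and 5.3e-05 for Cd44. Alternatives changed normalization, pseudocount, filter, moderation, libraries, the replicate term and a gene length and GC correction.

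The text names all members, the partner chains Itgb2 and Itgb7, up to 3 called genes with the smallest adjusted p and no overlap per list and comparison, the 3 genes most like each member, and single genes that a count or marker needs. The rule held 1 further gene, which is not reported here. Further values of a named list gene are given for comparison. Members and the 6 gene lists were chosen with earlier results of these data known. Positions and overlaps come from GENCODE vM21 on GRCm38.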

Additional observations from a re-analysis of the deposited data

Results flagged for a closer look

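For 3 members the effect of coupling to erythrocytes differed between protein and peptide by limma's test of that difference, with 3 libraries per group and 2 for SIINFEKL. For Pecam1 the protein effect minus the peptide effect was 1.29 on the log2 scale. For Selplg it was 0.78, and for Itgb1 it was -0.91. Of these, the Itgb1 value rests on SIINFEKL replicate 2, without which it was -0.37 and no longer called.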

How the results depend on the processing

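The 9 members in 9 comparisons gave 81 values, of which 31 were called, and 25 alternatives were run. In every alternative 21 calls held, 10 were lost in at least 1, and 0 called values changed sign. Of the 50 uncalled values, 13 were called in at least 1 alternative, and 23 changed sign in at least 1 without being called there, at no more than 0.4 in size. Itga4 after SIINFEKL ran from -0.02 to 1.16 with 1 library left out, and was called at 1.16. The count of called members in SIINFEKL against Naive was 2 to 5 with 1 library left out (4 as reported). In ERY1-OVA against OVA it was 0 to 1, and 0 with replicates 1 of OVA and TER119-SIINFEKL both left out, an alternative chosen after seeing the data. With only the groups compared it was 1 in TER119-SIINFEKL against SIINFEKL, and with quantile normalization 5 in OVA against SIINFEKL; the cause was not tested. Over all genes, the calls ranged from 363 to 2438 in SIINFEKL against Naive (1559 as reported), 0 to 360 in ERY1-OVA against OVA (104), 0 to 163 in ERY1-OVA against TER119-SIINFEKL (55) and 2131 to 4010 in TER119-SIINFEKL against SIINFEKL (3664). The share of calls that were higher moved from 52.4% to 41.4% with the length and GC correction in ERY1-OVA against Naive, and from 38.5% to 61.4% with quantile normalization in ERY1-OVA against OVA. The replicate block, over all 5 groups, lost 1 member call, Itgb1 in TER119-SIINFEKL against SIINFEKL (0.60, adjusted p = 0.075), and gained 0.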
